A study of Mus musculus with 5 samples.

Results

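The FGF-ERK signalling genes examined in the mouse embryonic stem cell (ESC) lines of this study were 1 ligand, Fgf4, 2 receptors, Fgfr1 and Fgfr2, and 7 genes that respond to ERK or restrain it, Dusp4, Dusp6, Spry2, Spry4, Egr1, Etv4 and Etv5. The array probes named for them were collected by gene name, which gave 18 probes for 9 of the 10 genes out of 41174 probes on the array. Fgf4 was not analysed here. All 18 probes passed the filter on detection, along with 28972 of all probes, and 15 of the 18 were well above background, a mark set by the scanner software, on all 5 arrays.

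The study profiled 5 ESC lines with 1 one-colour array each, 2 wild type and 3 homozygous for ECAT11 EGFP/EGFP, an allele in which an EGFP-IRES-Puro cassette takes the place of the ECAT11 (L1td1) coding region. The wild-type lines were RF8, labelled male and of 129sv origin, in which the gene was targeted, and #620-2, labelled female and of C57BL6/129sv origin. The ECAT11 EGFP/EGFP lines were #620-6, labelled female, and #757-1 and #757-2, both labelled male, all of C57BL6/129sv origin. Lines other than RF8 came from blastocysts of intercrossed carriers and were started on SNL feeder cells, and the profiled cultures were grown on gelatin in DMEM with FBS and LIF. Each line is 1 clone, so the spread between samples is a spread between lines. ECAT11 itself was not analysed here and the genotype of each line was taken from its label.

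Mouse ESCs make FGF4, which acts on FGF receptors at their own surface. Bound receptors dock the adaptors FRS2 and GRB2, which load Ras with GTP, and Ras starts the kinase relay from RAF through MEK to ERK. Active ERK induces immediate early and ETS-family transcription factors, among them Egr1, Etv4 and Etv5, and it also induces its own brakes, the phosphatases Dusp4 and Dusp6 and the Sprouty proteins Spry2 and Spry4. In ESCs the pathway is known for moving cells out of naive self-renewal and towards primed epiblast or, in the early embryo, primitive endoderm. mRNA levels of these genes are often read as a gauge of ERK output, but phosphorylation of ERK was not measured in these data.

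The sequences of 3 probes are printed because they show what the receptor signals rest on. A pair of Fgfr1 probes on chromosome 8 shares 39 bases and differs inside that stretch at 1 base, A57G, counted from the 5′ end of the first of them, with the differing base in capitals. The Fgfr2 probe on chromosome 7 is the only one of its 3 that lies far upstream in the gene, 129436 bases from the farthest downstream of them, and it was well above background on 1 array only.
Fgfr1 A_51_P109469 (mm7, chr8:24330044-24330103, plus strand): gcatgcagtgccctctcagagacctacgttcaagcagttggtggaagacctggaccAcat
Fgfr1 A_52_P668810 (mm7, chr8:24330065-24330124, plus strand): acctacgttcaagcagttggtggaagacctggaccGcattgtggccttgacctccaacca
Fgfr2 A_52_P158800 (mm7, chr7:126407714-126407773, minus strand): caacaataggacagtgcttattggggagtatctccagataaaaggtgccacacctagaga
No annotation of that build was used here, so exons and introns are not assigned to these positions.

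Signals are given throughout as the log2 of a probe's processed intensity over the 75th percentile of its array, so 0 is the 75th percentile and 1 unit is a 2-fold difference. Each gene is represented by its probe with the highest mean signal, the other probes being given where they add to it, and levels of different probes are not compared. No probe of the 9 genes passed the threshold used for calls, an adjusted p under 0.05 with more than a 2-fold difference (limma, Benjamini-Hochberg over all kept probes), between genotypes or between sex labels. The largest genotype difference among them was in Fgfr2 and the largest sex-label differences were in Dusp4 and Egr1.

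**Figure D1:**
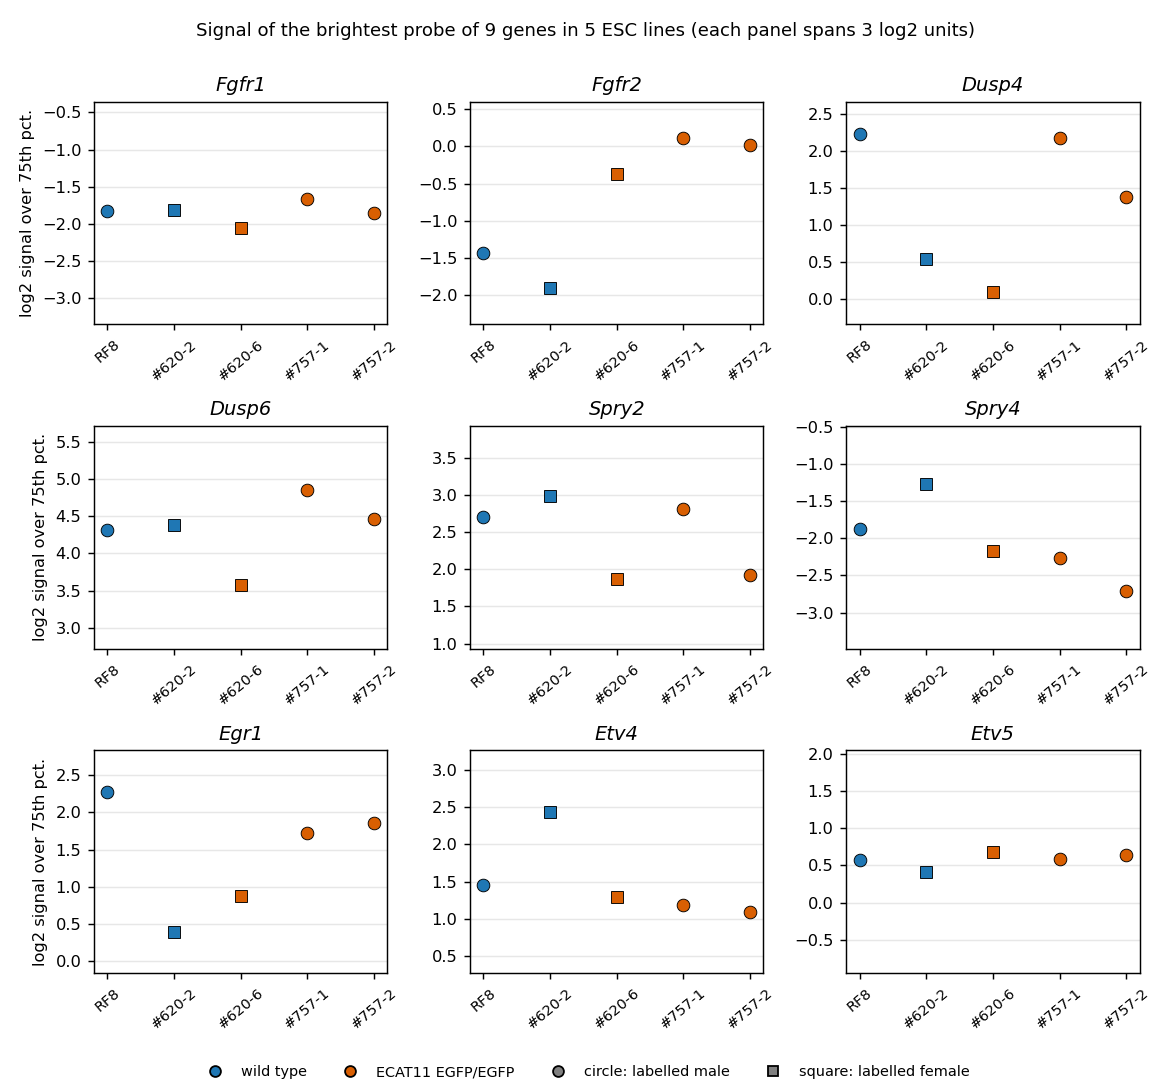
Log2 signal of the representative probe of each of 9 genes (y axis, relative to the 75th percentile of the array) in the 5 ESC lines (x axis), 1 point per array, with colour for genotype and shape for sex label. Fgfr2 lies between -0.37 and 0.11 in the 3 ECAT11 EGFP/EGFP lines and between -1.90 and -1.44 in the wild-type lines, and Dusp4 and Egr1 are lowest in the 2 lines labelled female.

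Fgfr2, a receptor tyrosine kinase that takes FGF signals in trophectoderm and primitive endoderm of the early embryo, had a log2 signal of -1.44 in RF8 and -1.90 in #620-2, against -0.37 in #620-6, 0.11 in #757-1 and 0.01 in #757-2. All 3 ECAT11 EGFP/EGFP lines were above both wild-type lines and the groups did not overlap. The mean was -0.08 ± 0.25 (SD, n = 3) in ECAT11 EGFP/EGFP lines and -1.67 ± 0.33 (SD, n = 2) in wild type, a difference of 1.59 (SE 0.246), which is 3.01-fold. The unadjusted p was 0.00173 and the adjusted p was 0.346 in limma, so the difference was not called. It ranked 145 among the 28972 probes by unadjusted p.

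A second Fgfr2 probe gave a difference of similar size. A_51_P432403, printed as 10 spots on each array, read -4.42 in RF8, -4.80 in #620-2, -3.38 in #620-6, -2.82 in #757-1 and -2.94 in #757-2, again with no overlap and with a difference of 1.57 (SE 0.251). The SD between lines was 0.30 in ECAT11 EGFP/EGFP and 0.27 in wild type, and the SD among its repeated spots, which covers technical error only, was 0.069 to 0.135 on an array. The upstream probe whose sequence is printed above was well above background in #620-6 alone, at -5.88, while the 4 other arrays lay between -7.89 and -6.16 and were not well above background, so it gives no measured difference between the groups.

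**Figure D2:**
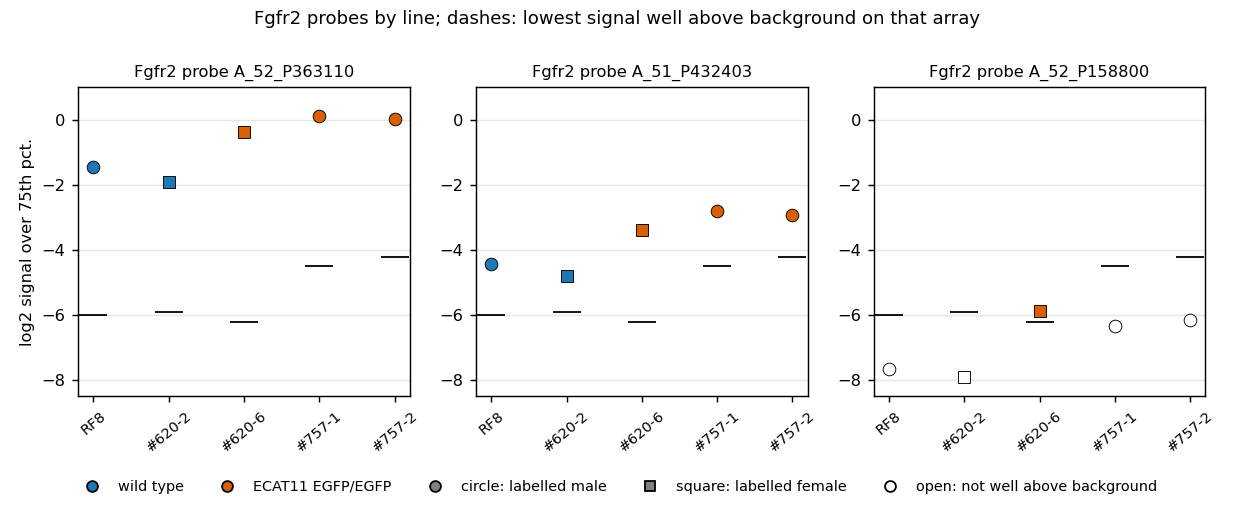
Log2 signal (y axis) of the 3 Fgfr2 probes in the 5 lines (x axis), with open symbols where a spot was not well above background and dashes at the lowest signal that was well above background on that array. In the first 2 panels the ECAT11 EGFP/EGFP lines lie above the wild-type lines by 1.59 and 1.57 on average; in the third only #620-6 is measured.

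Because the groups did not overlap, the direction of the Fgfr2 difference was fixed within the #620 lines and between the lines labelled male. Only the sizes are given here. #620-6 was above #620-2 by 1.53, or 2.89-fold, these lines having the same strain and sex labels, the same slide and the same line number. The mean of #757-1 and #757-2 was above RF8 by 1.50, a comparison in which strain label and slide differ as well. Fitting the slide as a block, which here compares #620-6 with both wild-type lines of slide 1, gave a difference of 1.30 with an unadjusted p of 0.0124. Over 17 other settings it stayed between 1.30 and 1.82, with adjusted p between 0.191 and 0.980. Those settings count the other Fgfr2 probes, among them the upstream probe, which gives no measured difference. Between #757-1 and #757-2, which have the same labels throughout, Fgfr2 differed by 0.095. The sex-label difference of Fgfr2 was -0.69 (SE 0.704, unadjusted p 0.373), with groups that overlapped, and within slide 1 it was 0.31.

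Markers of other cell types were set beside Fgfr2 because the gene is used by trophoblast and endoderm. Of 6 trophoblast markers, 3 were higher and 3 lower in ECAT11 EGFP/EGFP lines. Only 1 of them, Tfap2c, had an unadjusted p under 0.05 in limma, against 7.6% of all probes. Tfap2c read 1.94 and 2.24 in RF8 and #620-2 and 3.52, 3.62 and 3.80 in #620-6, #757-1 and #757-2. Its difference was 1.56 (unadjusted p 0.000528, adjusted p 0.285). The defining trophoblast gene Cdx2 was between -5.68 and -4.40 in all lines and was well above background on 3 arrays. The summed level of the list on the linear scale was 12.9 to 38.5 in wild type and 26.8 to 30.3 in ECAT11 EGFP/EGFP lines. The summed level of 8 primitive endoderm markers was 0.642 to 1.93 in wild type and 0.624 to 1.57 in ECAT11 EGFP/EGFP lines. The part of such cells in the Fgfr2 result was not tested, and in bulk RNA fewer cells of a type and less RNA per cell cannot be told apart.

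Fgfr1, the receptor through which most FGF4 signalling in ESCs is known to pass, was nearly level. Its representative probe read -1.82 in RF8, -1.82 in #620-2, -2.05 in #620-6, -1.66 in #757-1 and -1.85 in #757-2. The whole range was 0.39, the groups overlapped, and the genotype difference was -0.04 (SE 0.180, unadjusted p 0.852). The overlapping probe with the A57G difference, A_51_P109469, ran from -2.33 in #620-6 to -1.96 in #757-1 and gave 0.06 (SE 0.176). The 2 remaining Fgfr1 probes gave differences of -0.11 and -0.12, the second of them being well above background on 3 arrays only, those of slide 1. The sex-label differences of the 4 Fgfr1 probes lay between -0.22 and -0.04.

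Dusp4, a nuclear phosphatase of ERK, separated the lines by sex label and not by genotype. Its representative probe read 2.23 in RF8, 2.17 in #757-1 and 1.38 in #757-2, all labelled male, against 0.55 in #620-2 and 0.10 in #620-6, both labelled female. The 2 female-labelled lines were the lowest and did not overlap the others. The log2 difference was -1.60 (SE 0.335), which is 3.04-fold, with an unadjusted p of 0.00599 and an adjusted p of 0.133. A second probe read 1.79, 1.81 and 1.28 in RF8, #757-1 and #757-2 and -0.22 and -0.48 in #620-2 and #620-6. There the difference was -1.97 (SE 0.229), with an unadjusted p of 0.000503 and an adjusted p of 0.0704, just outside the threshold. Within slide 1, where RF8 is the male-labelled line, the differences were -1.90 and -2.14. Between genotypes the 2 probes gave -0.17 and 0.08, with groups that overlapped. Within slide 1, where #620-6 is set against both RF8 and #620-2, they gave -1.29 and -1.27. Against #620-2 alone, which has the same sex label, #620-6 differed by -0.45 and -0.26.

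Dusp6, the cytoplasmic phosphatase that is specific for ERK, read 4.31 in RF8, 4.39 in #620-2, 3.58 in #620-6, 4.85 in #757-1 and 4.46 in #757-2. Line #620-6 was the lowest, with the others between 4.31 and 4.85. The genotype difference was -0.05 (SE 0.416, unadjusted p 0.906) and the sex-label difference was -0.56 (SE 0.318, unadjusted p 0.142), with groups that overlapped in both cases. Within slide 1, where #620-6 is the sole ECAT11 EGFP/EGFP line, the genotype difference was -0.77 (unadjusted p 0.0459, adjusted p 0.545).

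The Sprouty genes code for inhibitors that act between the receptor and Ras. For Spry4 the representative probe read -1.87 in RF8 and -1.27 in #620-2, against -2.17 in #620-6, -2.27 in #757-1 and -2.71 in #757-2. Each ECAT11 EGFP/EGFP line was below both wild-type lines. The difference was -0.81 (SE 0.284, unadjusted p 0.0385, adjusted p 0.619), below the 2-fold mark and not called, and within slide 1 it was -0.60. It was -0.51 without #620-2 and -1.12 without RF8. The second Spry4 probe was well above background on slide 1 only, so it gives no measured difference between the groups. On that slide it read -5.26 in RF8, -4.37 in #620-2 and -5.58 in #620-6. Between #620-6 and #620-2 the first probe differed by -0.91. The sex-label difference of the first probe was 0.56, with an unadjusted p of 0.212 in limma.

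Spry2 had probes that disagreed. The probe with the higher mean signal, designed on an expressed sequence tag, read 2.70 in RF8, 2.99 in #620-2, 1.87 in #620-6, 2.82 in #757-1 and 1.92 in #757-2. The probe designed on the RefSeq transcript read -1.76, -3.47, -2.94, -2.04 and -3.60 in the same lines. Both were lower in #757-2 than in #757-1, with #757-1 above by 0.90 and 1.56. They ran opposite ways between #620-6 and #620-2, with differences of -1.12 and 0.52. The genotype differences were -0.64 (SE 0.358, unadjusted p 0.137) and -0.25 (SE 0.706, unadjusted p 0.739), and no direction is given for Spry2.

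Egr1, an immediate early zinc finger factor, read 2.27 in RF8, 1.72 in #757-1 and 1.85 in #757-2 against 0.40 in #620-2 and 0.88 in #620-6. As for Dusp4, the female-labelled lines were the lowest and did not overlap the rest. The sex-label difference was -1.31 (SE 0.254, unadjusted p 0.00445, adjusted p 0.118), a 2.48-fold difference, and within slide 1 it was -1.64. The genotype difference was 0.15 (SE 0.659, unadjusted p 0.832), and within slide 1 it was -0.46. Against #620-2 alone, #620-6 differed by 0.48.

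Etv4 and Etv5 are ETS-family factors of the PEA3 group, which FGF signals induce in many tissues. Etv4 read 1.45 in RF8 and 2.43 in #620-2, against 1.30 in #620-6, 1.19 in #757-1 and 1.10 in #757-2. The groups did not overlap, but #620-2 stood apart from all other lines, while RF8 was close to the ECAT11 EGFP/EGFP lines. The genotype difference was -0.75 (SE 0.329, unadjusted p 0.0756, adjusted p 0.721), and it was -0.26 without #620-2 and -1.24 without RF8. The sex-label difference was 0.62 (SE 0.378, unadjusted p 0.168). The representative probe of Etv5 read 0.58, 0.42, 0.68, 0.59 and 0.64 in RF8, #620-2, #620-6, #757-1 and #757-2. Its groups did not overlap, by a narrow gap, and its difference was 0.14 (SE 0.147, unadjusted p 0.390). A second Etv5 probe read -0.26, 0.01, 0.30, -0.46 and -0.20 in the same order of lines, with a genotype difference of 0.01 and a sex-label difference of 0.46 (unadjusted p 0.0437, adjusted p 0.263).

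**Figure D3:**
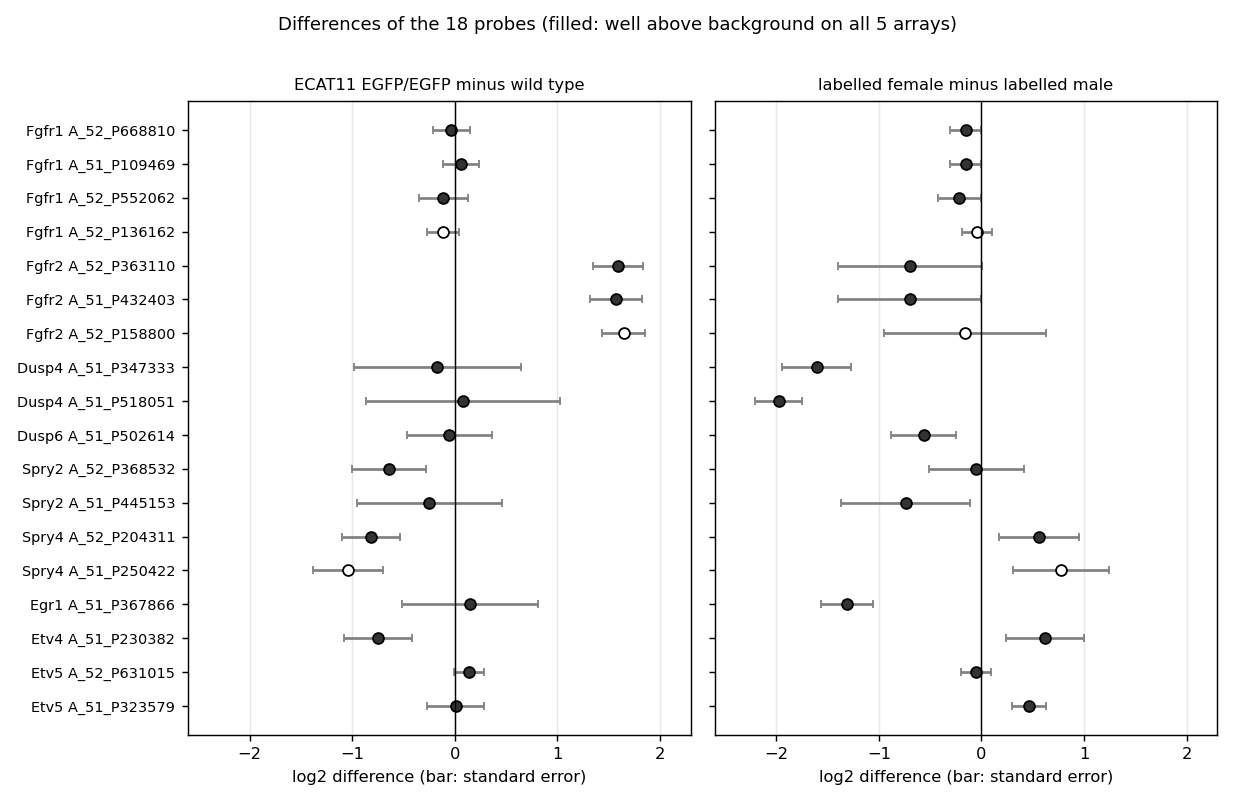
Log2 differences (x axis) of the 18 probes (y axis) from the limma fits for genotype (left) and sex label (right), with standard errors as bars and open symbols for probes not well above background on all 5 arrays. The 2 Fgfr2 probes measured on all arrays lie at 1.57 and 1.59 in the genotype panel, and the Dusp4 and Egr1 probes between -1.97 and -1.31 in the sex-label panel.

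Counted by representative probe, 3 of the 9 genes were higher and 6 lower in ECAT11 EGFP/EGFP lines, with a median difference of -0.05 against -0.02 over all kept probes. Of all kept probes, 47.4% were higher. Calls were 0 of 9 genes against 0.00345% of all probes, 1 probe of the gene Ubd. At an unadjusted p under 0.05 there were 2 of 9 genes (22.2%), Fgfr2 and Spry4, against 7.6% of all probes. The groups did not overlap in 4 of 9 genes (44.4%), Fgfr2, Spry4, Etv4 and Etv5, against 23.5% of all probes.

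For the sex label, 2 of the 9 genes were higher and 7 lower in the female-labelled lines, with a median difference of -0.15 against -0.02 over all kept probes. Of all kept probes, 48.3% were higher. Calls were 0 of 9 genes against 0.342% of all probes. At an unadjusted p under 0.05 there were 2 of 9 genes (22.2%), Dusp4 and Egr1, against 18% of all probes, and the same 2 genes were those without overlap, against 39% of all probes. That share is near the background for the first count and below it for the second. Both female-labelled lines have the number 620, so the sex label cannot be told apart from what those lines share.

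The lines of the 620 pair are separate clones whose labels differ by genotype alone. They had 3 of 9 genes more than 2-fold apart, Fgfr2, Etv4 and Spry2, against 7.1% of probes well above background on both arrays. #620-6 was above #620-2 by 1.53 for Fgfr2, and the difference was -1.14 for Etv4. Between #757-1 and #757-2 it was 0 of 9 genes, against 1.82% of probes. Between the 2 wild-type lines, #620-2 and RF8, it was 2 of 9 genes, Dusp4 and Egr1, against 10.3% of probes. Egr1 differed by -1.88 between those lines and Dusp4 by -1.68, so these genes varied more among wild-type lines than they did on average between genotypes. These pairs are single arrays with no test.

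Taken over lines, the genes varied more than most probes. The 15 probes that every array measured well above background had a median SD over lines of 0.53 and a median range of 1.34, against 0.24 and 0.60 over all 20617 such probes. The range was above 1 in 10 of the 15 and in 23.5% of all such probes. The widest ranges were those of Dusp4, at 2.13 and 2.29, and of Fgfr2, at 2.01 and 1.99, and among representative probes those of Etv5, at 0.26, and Fgfr1, at 0.39, were the narrowest.

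The rest of the pathway was read from a list of 84 further genes, of which 83 had a probe and 78 passed the filter. Between genotypes 0 of the 78 were called, 26 were higher and 52 lower, and the median was -0.09. Over all kept probes 47.4% were higher and the median was -0.02. At an unadjusted p under 0.05 there were 6, again against 7.6% of all probes. They included Sdc4, a heparan sulphate co-receptor, with a difference of 2.10, Rasgrp2, an exchange factor for small GTPases, at 1.27, the scaffold Ksr1 at 0.89, the kinase Braf at 0.64 and Myc at -0.59. Sdc4 read -0.58 in RF8 and -0.23 in #620-2 against 0.96 in #620-6, 2.61 in #757-1 and 1.50 in #757-2, so that the groups did not overlap, but its second probe gave -0.78. Braf also had probes of either sign. Map2k1, Map2k2 and Mapk3, kinases of the MEK and ERK steps, were not in that group, with differences of 0.13, 0.23 and -0.22. By role, 0 of 10 ligands, 1 of 7 receptors and co-receptors, 2 of 13 adaptors and Ras genes, 2 of 12 kinases and scaffolds, 0 of 15 negative regulators and 1 of 21 transcription factors and other responsive genes had an unadjusted p under 0.05.

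Between sex labels 0 of the 78 were called, while 19 had an unadjusted p under 0.05, against 18% of all probes, 9 of them higher and 10 lower in the female-labelled lines. Dusp9, an ERK phosphatase coded on the X chromosome, was the closest to the threshold. It read 2.11 in RF8, 2.32 in #757-1 and 1.99 in #757-2 against 3.65 in #620-2 and 4.05 in #620-6, a difference of 1.71 (SE 0.195, adjusted p 0.0694), and its second probe gave 1.66 (adjusted p 0.0619). It thus ran opposite to Dusp4, being highest where Dusp4 was lowest. Dusp9 was called under 3 of the alternatives, with adjusted p of 0.0239 to 0.048, and over all alternatives its difference stayed between 1.51 and 1.91, with adjusted p of up to 0.246. Eras, an X-linked Ras of ESCs, read 1.99, 2.10 and 2.13 in the male-labelled lines and 3.20 and 3.45 in #620-2 and #620-6, a difference of 1.26 (adjusted p 0.0704). Eras was called under 2 of the alternatives, and over all of them its adjusted p ran from 0.0226 to 0.248.

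X-linked genes as a class were higher in those lines. Of 707 X-linked probes measured well above background in every line, 580 were higher in the female-labelled lines and the median difference was 0.53. Over all kept probes 48.3% were higher. Of the 6 X-linked genes on the list, 5 passed the filter and all 5 were higher, with differences of 1.71 for Dusp9, 1.26 for Eras, 0.68 for the kinase Araf, 0.55 for the ERK-activated kinase Rps6ka3 and 0.39 for the proteoglycan Gpc4. Elk1, the sixth, was not well above background on any array. The difference of Dusp9 was exceeded by 18 of the 707 X-linked probes.

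Of the 21 ERK-responsive genes and transcription factors on the list, 11 were higher and 10 lower in the female-labelled lines, with a median of 0.02, and 6 had an unadjusted p under 0.05, 2 of them higher and 4 lower. Egr2, a close relative of Egr1, read -2.25, -2.55 and -2.97 in RF8, #757-1 and #757-2 and -3.88 and -4.32 in #620-2 and #620-6 (difference -1.51, adjusted p 0.112). Srf, the factor that binds serum response elements with ETS partners, differed by -0.72, Id1 by -1.17 and Id3 by -0.69. In the other roles, the lower genes at that p were the mRNA-destabilising protein gene Zfp36 at -0.77, the adaptor Gab1 at -0.995, Mapk3 at -0.77, Flrt3 at -0.62, and the ligands Fgf5 and Fgf8 at -1.78 and -0.68. The higher ones besides the X-linked genes were Fgf3 at 1.52, Lgals3 at 1.68, Elk3 at 0.80, Ccnd1 at 0.61 and Fgf10, which was not well above background in any male-labelled line and was at least 1.98-fold higher in the others. Fos and Junb differed less between sex labels than Egr1 and Egr2, at -0.10 for Fos and -0.33 for Junb, with Fos between -3.53 and -3.23 in all 5 lines.

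**Figure D4:**
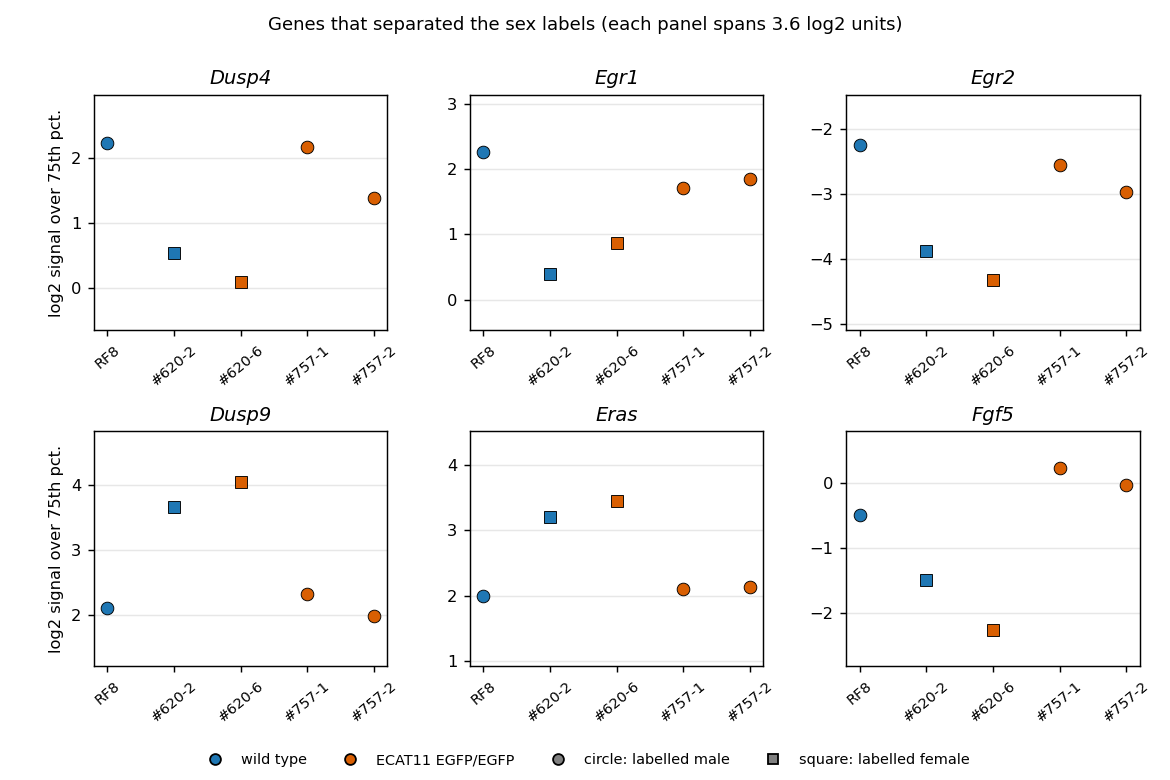
Log2 signal (y axis) of Dusp4, Egr1, Egr2, Dusp9, Eras and Fgf5 in the 5 lines (x axis), with squares for lines labelled female. In #620-2 and #620-6 Dusp4, Egr1, Egr2 and Fgf5 are below every other line and Dusp9 and Eras are above, with Dusp9 at 3.65 and 4.05 against 1.99 to 2.32.

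**Figure D5:**
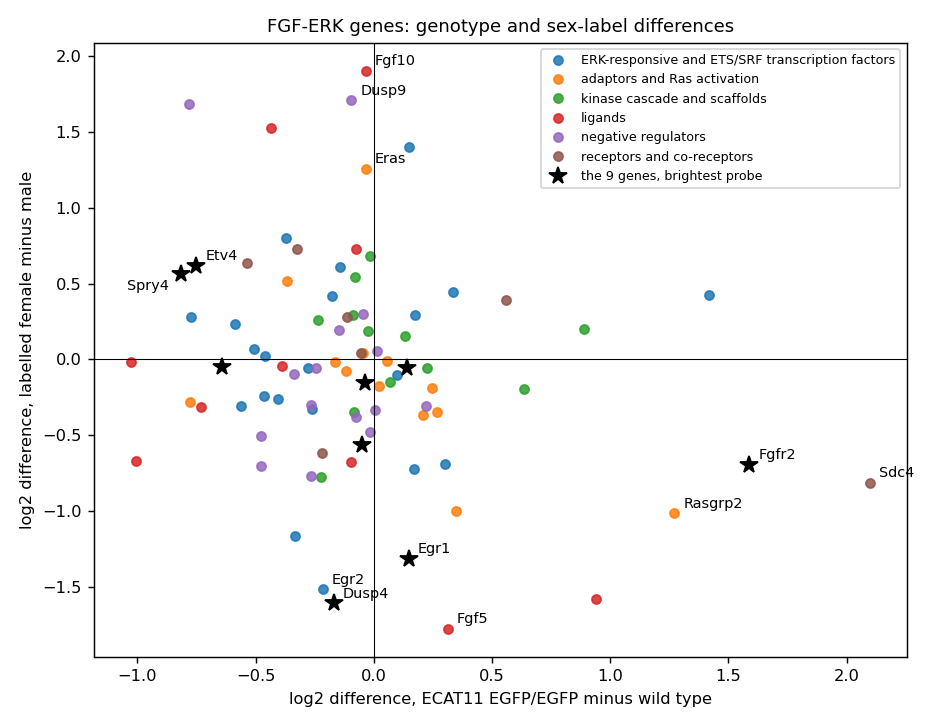
Log2 differences between genotypes (x axis) and between sex labels (y axis) of 78 further FGF-ERK genes, coloured by role, and of the 9 genes (stars), 1 representative probe each. Fgfr2 and Sdc4 lie to the right, at 1.59 and 2.10, Dusp4, Egr1, Egr2 and Fgf5 lie low, and Dusp9, Eras and Fgf10 lie high; both axes use the same 5 arrays.

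Other markers moved with the sex label as well. Of 8 fibroblast markers all were well above background in every line, and their summed level on the linear scale was 61.6 and 63.3 in #620-2 and #620-6 against 6.03 to 20.7 in the other lines. S100a4, which was called, made up most of that, at 5.61 and 5.70 against -1.66 to -0.06. Without it the sums were 12.7 and 11.3 in #620-2 and #620-6, 19.7 in RF8 and 5.72 in #757-1, with #757-2 between #757-1 and #620-6, so that RF8 was highest. Of the 8 markers, 5 were higher and 3 lower in the female-labelled lines, with Col1a1 at -0.69, Fn1 at -0.14 and Postn at -0.41. Of 8 primitive endoderm markers, summed levels were 1.57 and 1.93 against 0.624 to 0.687. All 8 were higher in the female-labelled lines, against 48.3% of all kept probes, with a median difference of 1.73. An unadjusted p under 0.05 in limma was found for 5 of them, against 18% of all probes. Pdgfra and Sox17 were called, 2 of the 8, against 0.342% of all probes. Pdgfra was not well above background in any male-labelled line, and Sox17 was not in the #757 lines. Gata6, measured on all 5 arrays, read -1.35 in #620-2 and -2.29 in #620-6 against -3.68 to -3.07 in the other lines. Gata4, a defining gene of that lineage, was between -5.90 and -5.11 in all lines and was not well above background in the #757 lines. Of 8 primed epiblast markers, 7 were lower in #620-2 and #620-6, with Dnmt3b, Otx2 and Fgf5 among the lower ones. Of the lower ones, Sox3 was well above background in RF8 only and T on 3 arrays. The summed level was 33.4 in #620-6 and 61.8 in #620-2 against 91.6 to 120.2. Pou3f1 and Dnmt3b, the brightest of the list at 6.08 and 5.51 in RF8, weigh most in that sum. The 9 ESC markers were well above background in every line, with a summed level of 477.1 to 556.3, but single markers varied. Zfp42 read 4.01 in #620-6 and 3.87 in #757-2 against 6.56 in #757-1, 6.80 in #620-2 and a higher value still in RF8, being low in the same lines as the representative Spry2 probe, and Nanog ran from 2.54 in RF8 to 4.54 in #620-6. The part of any of these in the Dusp4, Egr1, Dusp9 and Spry2 results was not tested.

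The genes whose pattern over the 5 lines was most like each varying gene were found among 3051 genes with a range of at least 1, by the root mean square difference of signals centred on the mean over lines. For Fgfr2 they were Lmo7 at 0.114, Hecw2 at 0.133 and Tmem254a at 0.162. For Dusp4 they included Egr2 at 0.128 and Setbp1 at 0.140, so that a gene of the pathway list came first among all candidates. For Egr1 they were Col11a1 at 0.0927, Lgi2 at 0.132 and Gramd1c at 0.143. Dusp6 was nearest to Ssbp3 at 0.0525, Etv4 to Dnaic1 at 0.0790, Spry4 to 4732416N19Rik at 0.0426 and Spry2 to Car11 at 0.0780. With 5 lines such likeness is a description of these arrays.

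The arrays differed in sensitivity by slide. RF8, #620-2 and #620-6 were on one slide and had 26362 to 27134 probes well above background, and #757-1 and #757-2 were on the other with 21242 to 22044. The lowest signal that was well above background was -6.22 to -5.90 on the first slide and -4.49 to -4.22 on the second, so a dim probe such as the second of Spry4 has no measured level in the #757 lines. No probe was saturated. The labelled sex matched the Y-linked genes Ddx3y, Eif2s3y, Kdm5d and Uty, well above background in the male-labelled lines only. It also matched the representative Xist probe, well above background in the female-labelled lines only. Another Xist probe did not follow the label, being well above background in RF8, at -2.49, and #620-6, at -5.84, but not in #620-2.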

How the data were processed

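Total RNA was labelled with Cy3 and hybridised to one-colour Agilent whole-genome arrays. The authors extracted the scans with Feature Extraction 9.5.3.1 and deposited spot intensity after background correction, not normalized between arrays, with detection flags. A second file of theirs, also deposited, holds log2 values, scaled to the 75th percentile with GeneSpring and centred per probe. Over 20617 probes it matched the scanner values with a slope of 1.00.

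Here log2 intensity was taken relative to the 75th percentile of each array. Spots marked as outliers (0.335%) and control spots were left out, and spots of a probe were averaged. A probe was kept if its signal was present on at least 1 array. limma 3.58.1 in R 4.3.3 fitted genotype and, separately, sex label to all 5 arrays, after a test on simulated data. An exact permutation of 2 against 3 lines cannot give a one-sided p below 0.1, so single values were tested only in the fit across probes. The number of arrays limits the precision. The alternatives were another background correction, quantile normalization, the deposited table, other filters, the methods' t-test, slide, the other label and leaving out each line. Genes of the list were named where the unadjusted p was under 0.05. The genes and lists were chosen with earlier results of these data known. Figures were drawn with matplotlib. A few genes that these rules would name are not reported here.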

Additional observations from a re-analysis of the deposited data

How the results depend on the processing

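No representative probe of the 9 genes was called under any alternative run, and the other probes of these genes are not covered by that count. Between genotypes 1 probe was called; 2 were called with the stricter detection filter and 0 with normexp, with quantile normalization, without a filter, by the methods' t-test, within slide blocks, after adding the sex label, or with any line left out (0 to 0), while 967 probes had an unadjusted p under 0.05 with over 2-fold in limma as reported, and 258 to 1828 did under the settings without calls. Between sex labels 99 probes were called, against 288 (normexp), 208 (quantile normalization), 27 (unfiltered), 302 (variance trend), 2 (the methods' t-test), 149 (slide block), 0 (genotype added, 2556 at an unadjusted p under 0.05 and over 2-fold) and 0 to 88 with a line left out, 88 without RF8 and 0 without any other line (1917 to 2564 at an unadjusted p under 0.05 and over 2-fold). The cause was not tested. The following differences turned sign. For genotype, Dusp4 was 0.083 by its other probe and ran from -1.01 to 0.67 with a line left out. Dusp6 ran from -0.33 to 0.31 with a line left out and was -0.77 in slide blocks, and Fgfr1 was 0.0044 with normexp, 0.056 by another probe and -0.13 to 0.062 with a line left out. Egr1 was -0.46 in slide blocks, -0.073 after adding the sex label and -0.79 to 1.09 with a line left out, the extremes being without #620-2 and without RF8. For sex label, Etv5 was 0.46 by another probe and -0.19 to 0.079 with a line left out, Fgfr2 was 0.31 in slide blocks and -1.46 to 0.072, and Spry2 was 0.0070 with quantile normalization and -0.61 to 0.51. Fgfr2 (genotype), Dusp4 and Egr1 (sex label) kept their direction in every alternative. So did Etv4, Etv5, Spry2 and Spry4 for genotype, and Dusp6, Etv4, Fgfr1 and Spry4 for sex label. The alternatives reuse the same 5 arrays. Where groups do not overlap, as for Fgfr2, Dusp4 and Egr1, leaving out a line cannot turn the sign. Dusp9 was called with normexp, quantile normalization and the variance trend, and Eras under 2 of the alternatives. No paired analysis was possible because the replicate numbers of the groups do not mark shared samples.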
